A study of Canis lupus familiaris with 16 samples.

Results

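CTSE (cathepsin E, ENSCAFG00000010206) and PAMR1 (ENSCAFG00000006865, whose protein is named for its peptidase domain and for regenerating muscle) are the pair of protease-related genes examined here, out of 24580 genes in the deposited table. Both were taken from the study's list of genes overexpressed in canine meningioma, a list that was made from these same libraries. The difference between meningiomas and controls therefore chose them, and it is described below without a test. RNAseq was performed on meningiomas of 13 client dogs, of which 6 were grade I (5 transitional, 1 meningothelial) and 7 were grade II (atypical). The controls were normal leptomeninges of 3 healthy research beagles. Most meningiomas were formalin-fixed, paraffin-embedded biopsies purified with the FormaPure kit, a pair of them were flash-frozen according to the study's methods, and the controls were all frozen and purified with Trizol. All but that pair of meningiomas therefore differed from the controls in preservation as well as in disease, and for them the parts of each cannot be told apart. The meningiomas, fixed or frozen, were surgical biopsies from dogs of both sexes, several breeds and a range of ages, at sites that included the spine. The control meninges were taken over the cortex shortly after euthanasia. Breed and collection thus also differed between the groups for all 13, and their parts cannot be told apart from that of disease. The ages of the control dogs are not given in the sources used here, and neither age nor sex was compared between the groups. The table numbers its libraries within each group, 0 to 12 for meningiomas and 0 to 2 for controls, and has no key from these numbers to the labelled samples. Libraries were not matched to dogs by their values, so grade and fixation were not compared. Which libraries are the frozen meningiomas was not determined here.

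Cathepsin E is an aspartic protease of the pepsin family that cuts proteins inside the endosomes of the cell. It is best known from the epithelium of the stomach and from cells of the immune system, where it takes part in the processing of antigens. PAMR1 is a secreted protein built from CUB, EGF-like and sushi domains and a domain of the trypsin type. That last domain is annotated as inactive, because residues needed for catalysis are missing, so PAMR1 is related to the serine proteases by sequence and is not known to cut proteins. RefSeq annotates a different dog assembly, UU_Cfam_GSD_1.0, where CTSE lies on chromosome 38 next to RAB7B and has 2 transcript models. PAMR1 lies there on chromosome 18 between FJX1 and SLC1A2 and has 7 transcript models.

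Fragments counted on genes ran from 2138741 to 7358925 over the meningioma libraries and from 2269204 to 7054614 over the controls. No pair of libraries was a duplicate, the closest having a Pearson r of 0.96 across genes on log2(FPKM + 1). Meningioma libraries 2 and 12 stood apart from all others on the third principal component, with scores of 70.3 and 67.5 where the rest lay between -34.9 and 14.9. The group means, fold changes, spreads and correlations of CTSE and PAMR1 are also given without these libraries. Whether libraries 2 and 12 are the flash-frozen pair was not determined. The values without them may therefore be values of fixed meningiomas only. Of 6 genes that mark the arachnoid lining, 3 had an identifier, podoplanin (PDPN), GJB2 and WFDC2. All 3 were listed by the study as overexpressed in these same libraries, so their level in the meningiomas is no independent check of the tissue label. They were above 0 in every library, controls included, and their summed FPKM ran from 218.2 to 1255 in the meningiomas and from 118.1 to 182.0 in the controls. Genes that mark macrophages, lymphocytes, red cells, muscle, stomach, neurons and astrocytes could not be paired with identifiers and were not analysed here. In bulk tissue, a smaller number of cells of one type and less RNA per cell cannot be told apart.

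CTSE had the wider range of the pair in each group. Its level is given as FPKM, the fragments of a gene corrected for transcript length and library size. In the controls it was 20.3 FPKM in library 0, 5.15 FPKM in library 1 and 0.952 FPKM in library 2, so the controls themselves differed by 21.4-fold. The last value rests on 8 fragments, and its 95% Poisson interval of 0.411 to 1.88 FPKM, which covers counting error only, does not reach the other controls. In the meningiomas the lowest value was 3.11 FPKM, the median 44.8 FPKM and the highest 574 FPKM, a 185-fold range.

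The highest CTSE levels were in meningioma library 2, with 574 FPKM from 3774 fragments, and library 8, with 382 FPKM from 3980 fragments. In library 2 CTSE was the 159th most abundant gene per length in the whole table. Libraries 7, 12 and 5 followed with 180.0, 151.7 and 107.0 FPKM. These few libraries carry most of the group's mean, since libraries 2 and 8 hold 58.8% of the CTSE FPKM summed over the 13 meningiomas.

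Intermediate CTSE levels were seen in 6 libraries, with 63.0 FPKM in library 6, 44.8 in library 3, 37.4 in library 11, 29.3 in library 9, 27.7 in library 10 and 17.7 in library 4. The remaining libraries, 0 and 1, had 7.13 and 3.11 FPKM, from 84 and 24 fragments. These 2 libraries and library 4 lay within the range of the controls. CTSE was above all 3 controls in 10 of the 13 meningiomas and below all of them in 0.

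PAMR1 was above CTSE in each of the controls, with 24.9 FPKM in library 0, 8.11 FPKM in library 1 and 10.5 FPKM in library 2. In the meningiomas its lowest value was 7.79 FPKM, its median 90.7 FPKM and its highest 347.9 FPKM, a 44.6-fold range. The range over the controls was 3.07-fold.

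PAMR1 was highest in meningioma library 3, with 347.9 FPKM from 4564 fragments, followed by library 9 with 258.5, library 8 with 258.4 and library 10 with 196.4 FPKM. Library 0 had 116.9, library 12 had 96.0, library 5 had 90.7, library 11 had 69.1, library 1 had 63.6 and library 7 had 59.9 FPKM. A gap separated these 10 libraries from the other meningiomas. The low libraries were 4, 2 and 6, with 13.7, 9.96 and 7.79 FPKM from 118, 85 and 70 fragments. Libraries 4 and 2 lay within the control range and library 6 lay below it, with a Poisson interval of 6.07 to 9.85 FPKM that includes the lowest control.

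**Figure D1:**
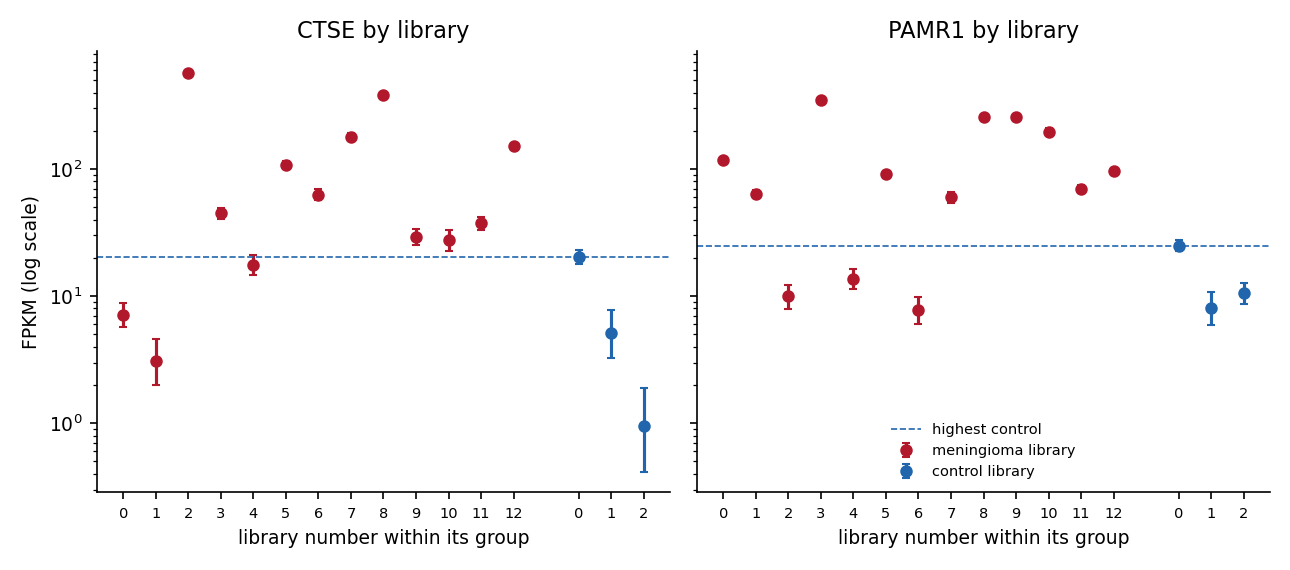
FPKM (log axis) of CTSE (left) and PAMR1 (right) in each meningioma library (red, 0 to 12) and each control library (blue, 0 to 2), with bars for the 95% Poisson interval of the fragments and a dashed line at the highest control. For each gene 10 of the 13 meningioma libraries lie above the line.

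As group means, the meningiomas had 125.0 ± 170.4 FPKM of CTSE (SD, n = 13) where the controls had 8.82 ± 10.2 FPKM (SD, n = 3). For PAMR1 these means were 122.2 ± 109.1 FPKM (SD, n = 13) and 14.5 ± 9.08 FPKM (SD, n = 3). For CTSE the SD exceeded the mean in both groups. Without meningioma libraries 2 and 12 the means were 81.7 ± 112.0 FPKM of CTSE and 134.8 ± 113.1 FPKM of PAMR1 (SD, n = 11). Without control library 0 the control means were 3.05 FPKM of CTSE and 9.33 FPKM of PAMR1. From edgeR's quasi-likelihood fit on fragments, the log2 fold change was 3.81 ± 1.51 (SE) for CTSE and 3.07 ± 1.07 (SE) for PAMR1. When single libraries were omitted, both values were highest without control library 0, the highest control for both genes. Without it the log2 fold change was 5.42 ± 2.03 (SE) for CTSE and 3.72 ± 1.38 (SE) for PAMR1. Then 12 meningiomas lay above the remaining controls for CTSE and 11 for PAMR1.

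The fit called neither gene at an adjusted p of 0.05 (Benjamini-Hochberg over 14345 tested genes), while it called 1.31% of all tested genes as higher in meningiomas. DESeq2 called both, and it called 4.61% of all tested genes as higher. Neither gene had all 13 meningiomas above all 3 controls in normalized counts, which 2.15% of the tested genes had, and 13.0% had at least 10 of 13 above, as CTSE and PAMR1 did. Since this contrast chose both genes, nothing is read from these counts. Without meningioma libraries 2 and 12 the log2 fold change was 3.19 for CTSE and 3.20 for PAMR1.

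Whether the same tumours carried both transcripts was not used to choose the genes and could be tested. The libraries with the most CTSE and those with the most PAMR1 overlapped in part. The overlap expected of unrelated genes was not computed, so no relation is read from the counts that follow. Both genes were above all controls in 8 meningioma libraries (3, 5, 7, 8, 9, 10, 11 and 12). CTSE alone was above them in libraries 2 and 6, PAMR1 alone in libraries 0 and 1, and neither gene in library 4. Library 8 was the only library among the 3 highest for both genes.

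Over the 13 meningiomas, log2(FPKM + 1) of CTSE and PAMR1 had a Pearson r of -0.13 (two-sided permutation test, p = 0.680) and a Spearman rho of -0.14 (permutation p = 0.657). Adjusted over the 3 correlations computed, which include those of each gene with depth, p was 0.844 and 0.879. Without meningioma libraries 2 and 1, the farthest from the median of CTSE, r was 0.11, and without libraries 2 and 12 it was 0.14, so its sign rested on library 2. No relation was detected with this number of tumours. The correlation with log10 of the library's fragments was 0.06 for CTSE (permutation p = 0.844, adjusted p = 0.844) and 0.19 for PAMR1 (permutation p = 0.530, adjusted p = 0.844). The Spearman rho with depth was 0.05 for CTSE (permutation p = 0.879, adjusted p = 0.879) and 0.23 for PAMR1 (permutation p = 0.460, adjusted p = 0.879), and r without the libraries of most extreme depth, 10 and 0, was 0.23 and 0.44.

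**Figure D2:**
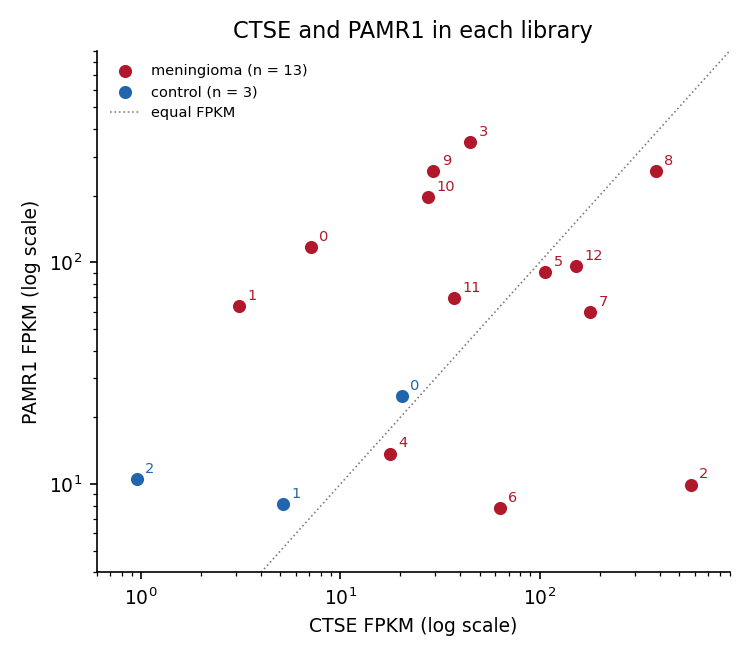
PAMR1 FPKM against CTSE FPKM (both log axes) in each library, numbered within its group, with meningiomas in red, controls in blue and a dotted line where the levels are equal. Meningioma libraries lie on both sides of the line, from library 1 with 3.11 FPKM of CTSE and 63.6 of PAMR1 to library 2 with 574 of CTSE and 9.96 of PAMR1.

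Within a library, neither gene was regularly the more abundant per length. PAMR1 had the higher FPKM in 6 of the 13 meningiomas and in 3 of the 3 controls. The ratio of PAMR1 to CTSE ran from 0.0174 in meningioma library 2 to 20.4 in library 1, with a median of 0.847, and it was 1.22, 1.57 and 11.1 in control libraries 0, 1 and 2. The mean difference in log2(FPKM + 1), PAMR1 minus CTSE, was 0.43 ± 2.88 (SD, n = 13) in the meningiomas (exact two-sided permutation test over sign flips, p = 0.599). Without libraries 2 and 12 it was 1.09 (permutation p = 0.158, n = 11). Which gene was the more abundant thus changed from library to library. In library 2 CTSE exceeded PAMR1 57.6-fold, in library 6 it did so 8.08-fold and in library 7 it did so 3.01-fold. In libraries 1 and 0 PAMR1 exceeded CTSE 20.4-fold and 16.4-fold, and in libraries 9, 3 and 10 by 8.82-fold, 7.76-fold and 7.10-fold. In libraries 4, 5, 8, 11 and 12 the levels were within 2-fold of each other.

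On log2(FPKM + 1), few genes varied more between tumours than these. The SD of log2(FPKM + 1) over the 13 meningiomas was 2.07 for CTSE and 1.75 for PAMR1, where the median over the 14345 tested genes was 0.50. Without libraries 2 and 12 these SDs were 1.89 and 1.69. The jackknife SE of the SD over all 13, from leaving out 1 library at a time, was 0.38 for CTSE and 0.30 for PAMR1. Without library 1 the SDs were 1.82 for CTSE and 1.83 for PAMR1, so their order rested on that library. Of the tested genes, 99.3% had a smaller SD than CTSE and 98.6% a smaller SD than PAMR1. Of the 124 identifiers on the study's lists, 3 had a larger SD than CTSE and 10 a larger SD than PAMR1. Both were also abundant on average, with a mean FPKM in the meningiomas above that of 96.5% and 96.3% of the tested genes. The 1 added before the logarithm narrows the SD of genes at low FPKM, and no comparison at matched level was made. The biological coefficient of variation that edgeR estimated over both groups was 1.14 for CTSE and 0.88 for PAMR1, larger than in 96.4% and 91.2% of the tested genes. In the controls the SD of log2(FPKM + 1) was 1.73 for CTSE and 0.79 for PAMR1 (n = 3).

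**Figure D3:**
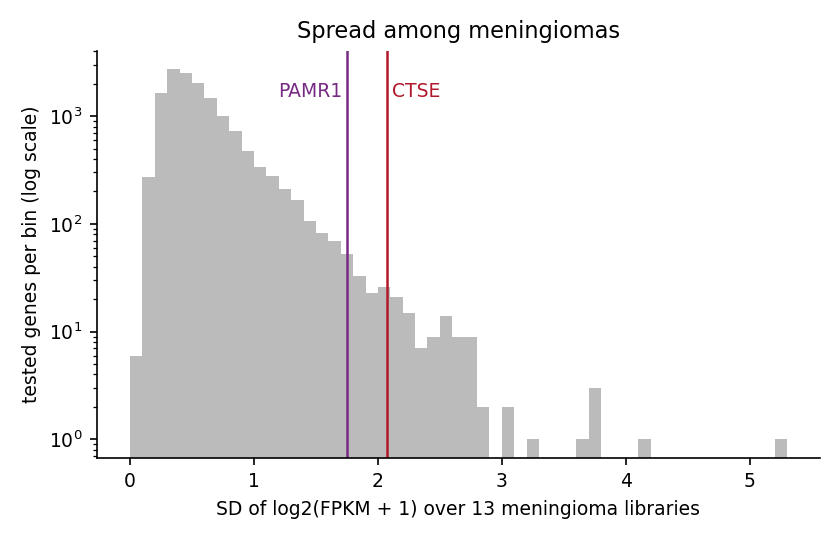
Histogram of the SD of log2(FPKM + 1) over the 13 meningioma libraries for the 14345 tested genes (log vertical axis, genes per bin). The lines mark PAMR1 at 1.75 and CTSE at 2.07, both in the upper tail.

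The genes that varied most like each member among the 13 meningiomas were sought among the 123 other identifiers with a symbol. The measure was Pearson's r of log2(FPKM + 1), given as a description since the genes were picked for it. For CTSE they were MCAM (ENSCAFG00000012079), a cell adhesion molecule of blood vessel walls, with r = 0.69, MMRN2 (ENSCAFG00000016086), a protein of the endothelial extracellular matrix, with r = 0.66, and PECAM1 (ENSCAFG00000011740), an adhesion molecule of endothelial cells, with r = 0.65. Without libraries 2 and 12 these were 0.74, 0.54 and 0.71. All 3 are vascular genes from the list of underexpressed genes, so between the groups they ran opposite to CTSE while within the meningiomas they ran with it. MCAM was highest in library 2, as CTSE was, at 24.8 FPKM, and lowest in library 1, as CTSE was, at 2.49 FPKM. In the controls MCAM was at 78.5 ± 34.1 FPKM (SD, n = 3). The gene least like CTSE was GEM (ENSCAFG00000031938), a small GTP-binding protein, with r = -0.68, or -0.57 without libraries 2 and 12.

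The summed FPKM of 9 endothelial genes (PECAM1, TIE1, TEK, FLT1, EMCN, ESAM, CD93, PLVAP and NOS3) was compared with both members after the values were seen. It ran from 37.5 in meningioma library 1 to 177.4 in library 7, with a median of 69.3, and from 434.1 to 699.1 in the controls, and none of the 9 was at 0 in any library. In library 2, with the highest CTSE, it was 141.1. Over the 13 meningiomas its log2 had a Pearson r of 0.70 with CTSE and a Spearman rho of 0.65. Without libraries 7 and 6, the farthest from the median of the endothelial sum, r was 0.78, and without libraries 2 and 12 it was 0.71. For 4 genes of mural cells (NOTCH3, MYH11, MCAM and FHL5), whose sum ran from 11.8 to 45.2 in the meningiomas and from 111.0 to 253.7 in the controls, r with CTSE was 0.63 and rho was 0.61. Without libraries 7 and 1 that r was 0.44, and without libraries 2 and 12 it was 0.75. These sums hold PECAM1 and MCAM, which were picked above for their r with CTSE, so both relations are descriptions with no test, and the part of vessel content in the CTSE levels was not tested.

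Genes that varied like PAMR1 included GJB2 (ENSCAFG00000029537), the gap junction protein connexin 26, with r = 0.81, and MYRF (ENSCAFG00000016062), a membrane-bound transcription factor, with r = 0.81. Without libraries 2 and 12 these were 0.83 and 0.76. Both come from the same list of overexpressed genes as PAMR1. GJB2 was lowest in library 6, as PAMR1 was, at 61.5 FPKM, and highest in library 3, as PAMR1 was, at 971.8 FPKM. In the controls it was at 48.7 ± 16.1 FPKM (SD, n = 3). MYRF was lowest in library 2, at 4.21 FPKM, and highest in library 8, at 46.2 FPKM. The gene least like PAMR1 was CRISPLD2 (ENSCAFG00000019943), a secreted protein, with r = -0.73, or -0.72 without libraries 2 and 12.

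Among all tested genes, r with PAMR1 exceeded 0.8 for 28 genes and lay under -0.8 for 18, and r with CTSE did so for 3 and 11. The summed FPKM of PDPN, GJB2 and WFDC2 had a Pearson r of 0.63 with PAMR1 and a rho of 0.56, given with no test because GJB2, picked above for its r with PAMR1, is part of the sum. Without libraries 6 and 4, the farthest from its median, r was 0.11, and without libraries 2 and 12 it was 0.93. Library 2 had a high sum, of 1247 FPKM, beside its low PAMR1. The sum of 5 immediate-early genes (FOS, FOSB, EGR1, NR4A1 and ZFP36), which respond to stress and to tissue handling, ran from 32.8 to 1872 FPKM in the meningiomas and from 33.2 to 55.7 FPKM in the controls. With PAMR1 its Pearson r was -0.58 (permutation p = 0.0385, adjusted p = 0.0770 over 8 relations computed), its rho was -0.56 (permutation p = 0.0492, adjusted p = 0.0986), r without libraries 0 and 2 was -0.62, and r without libraries 2 and 12 was -0.52. For the remaining 4 relations (endothelial and mural sums with PAMR1, arachnoid and immediate-early sums with CTSE) the permutation test gave adjusted p from 0.255 to 0.814 for r and from 0.269 to 0.963 for rho. The 8 relations include those given with no test. Their low p in the permutation test made the adjusted p of the immediate-early sum with PAMR1 smaller. None of these 5 relations passed 0.05 after adjustment, and the part of these genes' levels in the PAMR1 values was not tested.

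**Figure D4:**
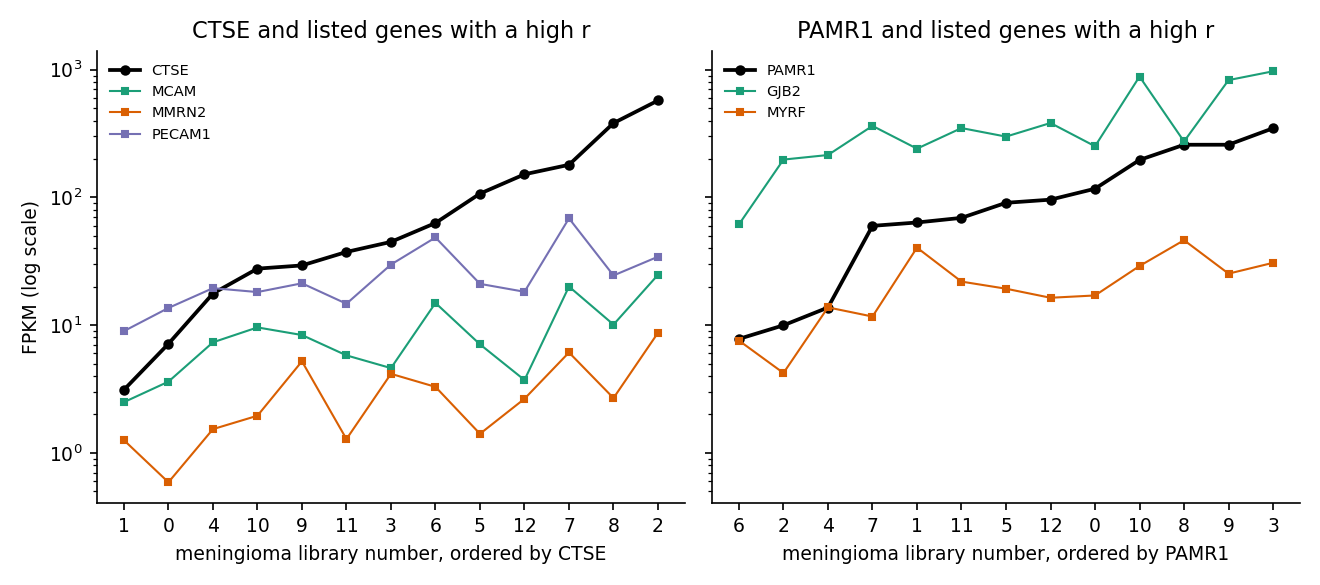
FPKM (log axis) over the 13 meningioma libraries, ordered by CTSE (left) or PAMR1 (right), of that gene in black and of listed genes with a high Pearson r. MCAM, MMRN2 and PECAM1 rise unevenly from the left with CTSE (r of 0.69, 0.66 and 0.65), and GJB2 (r of 0.81) is lowest in library 6 and highest in library 3, as PAMR1 is.

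The other 9 protease-related genes on the study's lists were set beside CTSE and PAMR1, and they too had been chosen by the study on these libraries. Of the 11 genes, 1 was called as higher and 5 as lower in meningiomas (edgeR, adjusted p under 0.05), against 4.86% of all tested genes called in either direction, and the median log2 fold change was -2.05, against 0.06 over all tested genes. CTSE and PAMR1 had positive values, as did an enzyme precursor of blood plasma and a secreted inhibitor-like protein. So did an identifier that the study gave to an enzyme of the endoplasmic reticulum and to another gene. KLKB1 (ENSCAFG00000007364), which encodes plasma prekallikrein, averaged 102.5 FPKM over the meningiomas (SD 74.5, n = 13) and 15.4 FPKM over the controls (SD 6.48, n = 3), and its log2 fold change of 2.73 ± 0.90 (SE) was not called. WFDC2 (ENSCAFG00000009696), a small protein of the WAP inhibitor family, averaged 260.7 FPKM (SD 157.7, n = 13) where the controls averaged 77.2 FPKM (SD 19.5, n = 3), and it was not called either. The identifier given to both ERMP1, an endoplasmic reticulum metallopeptidase, and DMXL2 (ENSCAFG00000002131) was called, at 1.85 ± 0.43 (SE) on the log2 scale. Which of these genes it measures was not settled here, so the 1 call as higher may not be of a protease-related gene. For this identifier the 13 meningiomas, from 14.4 to 60.1 FPKM, were all above the controls, from 7.99 to 9.88 FPKM.

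The 5 genes called as lower were 3 metallopeptidases and 2 matrix proteins related to proteases but without a working protease domain. ACE (ENSCAFG00000012998), which converts angiotensin I, ran from 19.2 to 31.3 FPKM in the controls and from 0.851 to 6.46 FPKM in the meningiomas. ECE1 (ENSCAFG00000014920), which matures endothelins, ran from 35.1 to 59.6 FPKM in the controls and from 4.98 to 21.1 FPKM in the meningiomas. Both are enzymes of the vessel wall, and for each all 13 meningiomas were below all controls, as 3.58% of the tested genes were in normalized counts. CPZ (ENSCAFG00000014583), a secreted carboxypeptidase, had a log2 fold change of -2.86 ± 0.58 (SE), TINAGL1 (ENSCAFG00000011002), a matrix protein with an inactive cathepsin B-like domain, one of -2.72 ± 0.41 (SE), and ADAMTSL1 (ENSCAFG00000001581), an ADAMTS-like protein without a protease domain, one of -3.71 ± 0.89 (SE). TLL1 (ENSCAFG00000008883), a tolloid metalloprotease that processes procollagen,, at -2.39 ± 0.77 (SE), was not called, although the 13 meningiomas were below all controls.

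Among the 13 meningiomas these genes ran with CTSE or PAMR1 to different degrees. The highest r with PAMR1 was that of KLKB1, at 0.68, whose r with CTSE was -0.19. The highest r with CTSE was that of TINAGL1, at 0.62, whose r with PAMR1 was -0.43, and TLL1 and CPZ followed at 0.58 and 0.49. ECE1 had the lowest r with PAMR1, at -0.62, and an r of -0.04 with CTSE. Without libraries 2 and 12, KLKB1 had an r of 0.65 with PAMR1, TINAGL1, TLL1 and CPZ had 0.56, 0.51 and 0.22 with CTSE, and ECE1 had -0.59 with PAMR1. The gene with the highest r with CTSE was then ACE, at 0.56, and the gene with the lowest r with PAMR1 was ADAMTSL1, at -0.63. These correlations are descriptions over 13 libraries that were not all preserved and purified alike.

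**Figure D5:**
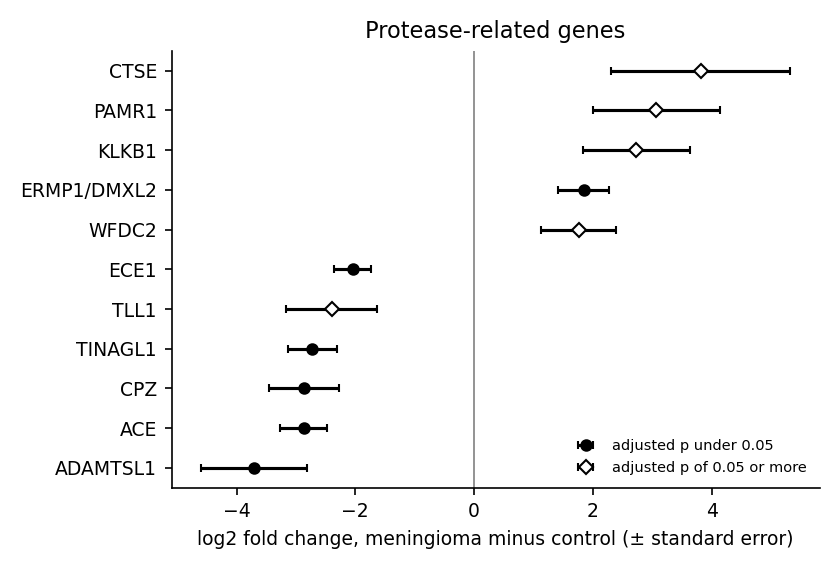
Log2 fold change, meningioma minus control, with its standard error for the 11 protease-related genes, with filled circles for genes called by edgeR and open diamonds for the rest. CTSE and PAMR1 have the highest values, 3.81 and 3.07, with the widest error bars among the positive genes, and 6 of the 11 genes lie below 0.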

How the data were processed

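Libraries were trimmed by the authors with cutadapt 1.8, freed of reads matching ribosomal and small RNAs, mapped to canFam3 with TopHat2 2.0.13 and quantified with Cuffdiff 2.2.1. The library kit was directional and mapping was set to first-strand libraries, while a strand setting for the quantification is not given in the sources used here. The deposited table gives estimated counts of fragments for each gene and library. Of these values 0.347% had decimals, and they were rounded before fitting. Its scaled signal is the authors' fragments over a size factor for the library, and its FPKM is the authors' scaled value per transcript length. Rows with condition C and N were taken as meningiomas and controls because their 13 and 3 libraries match the labels.

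Fragments of all 16 libraries were fitted with edgeR 4.0.16 (quasi-likelihood, TMM) in R 4.3.3, for genes with at least 10 fragments in 3 libraries. A standard error is the log2 fold change over the root of F. DESeq2 1.42.0, limma 3.58.1 on log2 FPKM, other factors and filters, and omitted libraries were the alternatives. Correlations used log2(FPKM + 1) and 100000 resamples in numpy 2.4.6 and scipy 1.17.1. Scripts were tested on simulated data. Symbols come from the study's lists (124 identifiers). The genes named were the members, the protease-related list and, for each member, the 3 listed genes with the highest r and the 1 with the lowest, of which 1 for PAMR1 is not reported here. The members and lists were chosen with earlier results of these data known. That libraries are separate dogs follows from the study's methods. Poisson intervals cover counting error only.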

Additional observations from a re-analysis of the deposited data

How the results depend on the processing

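The log2 fold changes of CTSE and PAMR1 stayed positive under all 24 alternatives. With 1 library omitted at a time they ran from 3.28 to 5.42 for CTSE and from 2.79 to 3.72 for PAMR1, the highest of both without control library 0. The number of genes called was 697 and became 1364 with DESeq2 (662 higher, 702 lower), and 245, 350 and 169 without control library 0, 1 and 2. Over libraries left out it ranged from 169 to 931, the 931 without meningioma library 6. Of the 11 protease-related genes 6 were called, and 10 with DESeq2. With a library left out 3 to 8 were called, the 3 without control library 2 and the 8 without meningioma library 6. DESeq2 was the only alternative that called CTSE or PAMR1, both of which the study had called with Cuffdiff. For PAMR1 the study also ran qPCR on the same RNA samples and reported overexpression in nearly all meningiomas. A few meningiomas had too little cDNA for qPCR. The study's own comparison by sample also counted some of the others as discordant between qPCR and RNAseq for PAMR1. The correlation of CTSE with PAMR1 changed sign, to 0.14 without libraries 2 and 12 and 0.11 without libraries 2 and 1, and ran from -0.29 to 0.14 with a library left out. That of CTSE with depth became -0.030 without libraries 2 and 12 and ran from -0.080 to 0.29. None of the 3 correlations of the members with each other or with depth passed 0.05 under any of these alternatives. The cause of these changes was not tested. On log2(FPKM + 1), limma averages logarithms rather than fragments and gave 3.11 for CTSE and 2.40 for PAMR1. No paired analysis was possible because meningiomas and controls came from different dogs, so that a number shared between the groups marks no shared animal, and the table has no key from its library numbers to the labels.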
